A study of Mus musculus with 16 samples.

Results

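The mRNA levels of 9 genes of the BCL2 family were followed in mouse neural stem and progenitor cells with and without the histone acetyltransferase gene Kat7. The genes were taken from a list of pro- and anti-apoptotic genes by matching mouse Entrez identifiers to symbols, and all 9 were found among the 27179 genes of the count files. They are the anti-apoptotic Bcl2, Bcl2l1 and Mcl1, the effectors Bax and Bak1, and the BH3-only genes Bcl2l11, Bid, Bbc3 and Pmaip1. All 9 passed the filter on low counts that left 15177 genes for testing.

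The cells came from E14.5 mouse foetuses, whose cortices and ganglionic eminences were grown as neurospheres. Null cells were Kat7 lox/lox and carried the Nestin-Cre transgene (NesCre T/+), and intact cells were Kat7+/+ with the same transgene. Cre was thus present in every library, and in the null cells it removed Kat7 in cells that use the Nestin sequences. Libraries of polyadenylated RNA fell into 4 groups of 4: null differentiating, intact differentiating, null proliferating and intact proliferating. Differentiating cells were plated on laminin after passage 3 and given cortical neuron medium for 3 days. Proliferating cells had been kept for 3 passages and 3 days in neurosphere medium. The p-values measure the spread between libraries within the groups, and equal the spread between isolates (foetuses) only if each library is a separate isolate. Pairs within a group were unequally close. The chi-square per degree of freedom over gene counts was 1.84 between intact proliferating libraries 2 and 3. It was 39.8 to 48.9 between library 1 and the others of that group. Null proliferating libraries 2 and 3 were at 3.10, and pairs with library 4 at 42.0 to 60.8.

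Proteins of the BCL2 family decide whether the outer mitochondrial membrane is opened in intrinsic apoptosis. BAX and BAK1 form the pores, BCL2, BCL-XL (from Bcl2l1) and MCL1 hold them in check as guardians, and BH3-only proteins bind the guardians or activate the pore formers. Loss of neural precursors in the developing forebrain is known to depend on this pathway, and mRNA is only 1 of its layers, since the proteins are also controlled by their stability and location.

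Libraries held 16.8 to 47.9 M counts. Kat7 had 0 to 4 counts in each null library and 2643 to 3748 in each intact library, so that the labels held for the targeted gene. Markers of neural stem and progenitor cells were present in every group, with 10 of 10 at 1 CPM (counts scaled to library size) or more, while the 10 microglial markers summed to at most 0.894 CPM in any library. Some libraries stood apart from their groups. Intact differentiating library 1 had summed neuronal markers of 6472 CPM against 2388 to 3632 CPM in the other intact differentiating libraries. Intact proliferating library 1 had summed astrocyte markers of 2155 CPM against 1303 to 1438 CPM in the others of its group. Null proliferating library 4 had summed astrocyte markers of 3656 CPM against 2475 to 2605 CPM, and summed endothelial and mural markers of 123 CPM against 51.4 to 58.6 CPM. Values without them are given where they end a call or move a difference of the 9 genes by much.

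Levels of different genes were compared per length, as TPM (length-scaled read counts with the same total in each library). Bax was the most abundant of the 9 genes in every group and Mcl1 was second, and neither overlapped its neighbour in that order in any group. Bax averaged 230.1 ± 15.9 TPM in null differentiating, 226 ± 11.6 TPM in intact differentiating, 504 ± 24.8 TPM in null proliferating and 453 ± 51.9 TPM in intact proliferating cells (SD, n = 4 each). Mcl1 averaged 134 ± 3.27, 125 ± 4.40, 124 ± 6.45 and 124 ± 3.09 TPM in the same groups. Bak1 was next, except in intact differentiating cells, where Bcl2l1 (60.7 ± 14.9 TPM) and Bak1 (54.5 ± 7.70 TPM) overlapped. Further down the order the neighbours Bbc3, Bid, Pmaip1 and Bcl2l11 overlapped in null proliferating cells, as did Bcl2l1, Bbc3, Pmaip1, Bcl2 and Bid in intact proliferating cells. In null differentiating cells no neighbours in the order overlapped. Pmaip1 was the lowest gene in both differentiating groups, at 4.26 ± 0.79 TPM in null and 2.40 ± 1.11 TPM in intact cells. Bcl2l11 was the lowest in intact proliferating cells (7.57 ± 0.54 TPM) and Bcl2 in null proliferating cells (7.15 ± 0.51 TPM).

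**Figure D1:**
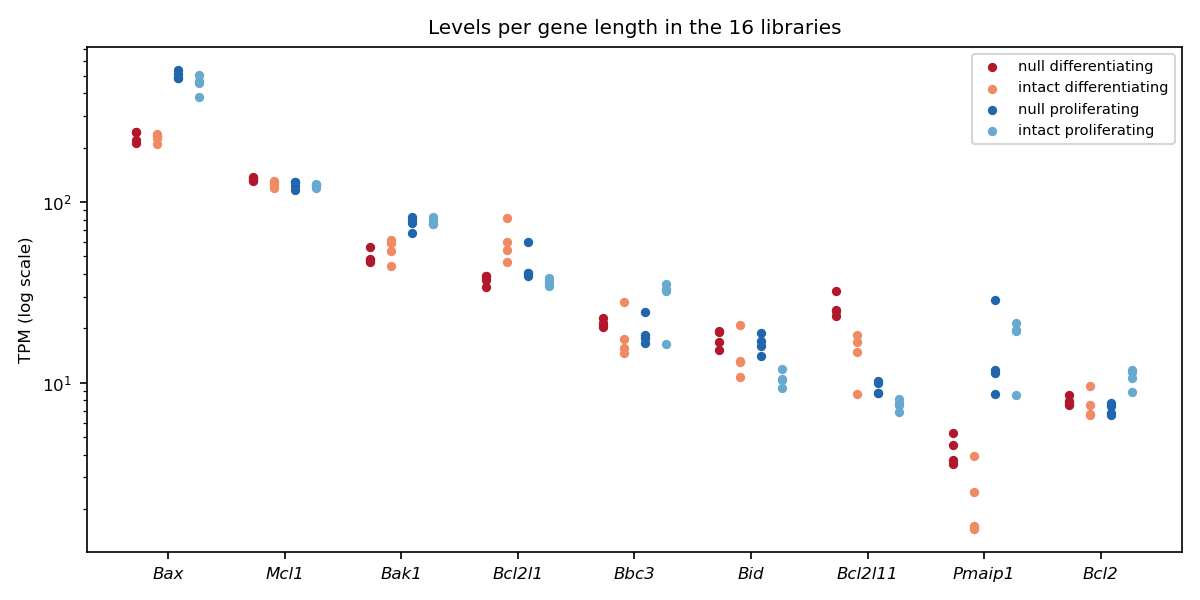
Level of each gene in TPM (log axis) in the 16 libraries, 1 point per library and 1 colour per group, with genes ordered by their mean over all libraries. Bax and Mcl1 lie above all other genes in each group, and Pmaip1 spreads from the lower end in differentiating cells to 28.8 TPM in null proliferating library 4.

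To follow 1 gene across groups, counts were scaled by the trimmed mean of M values (TMM) and are given as normalised CPM, with changes as log2 fold changes from edgeR's quasi-likelihood test. A gene passed at a Benjamini-Hochberg adjusted p under 0.05 over all tested genes. The null against intact comparisons and the comparisons of differentiating with proliferating cells share their libraries, so their values for a gene stand side by side and are not independent.

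Among the guardians, the 3 genes did not move together. In differentiating cells, null against intact, Bcl2l1 fell and Mcl1 rose, while in proliferating cells Bcl2 fell and Bcl2l1 rose. Over the 9 genes, 3 passed in differentiating cells (2 higher, 1 lower), where 46.4% of all tested genes passed (24.3% higher, 22% lower). In proliferating cells 3 of 9 passed (2 higher, 1 lower), where 38.6% of all genes passed (19% higher, 19.7% lower), so neither share stood above the background. The libraries of the genotypes did not overlap for 3 of 9 genes in differentiating cells (45.3% of all genes) and for 3 of 9 in proliferating cells (39%).

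Bcl2l1 (Entrez 12048, chromosome 2, 152758732 to 152833803, minus strand, GRCm38) encodes BCL-XL, a guardian on which many neurons depend. Normalised CPM of Bcl2l1 were 34.5, 39.2, 41.1 and 40.5 in null differentiating libraries 1 to 4, against 77.8, 52.8, 55.0 and 46.3 in intact differentiating libraries. In proliferating cells they were 48.4, 43.9, 47.4 and 68.7 in null libraries, against 38.1, 40.0, 38.7 and 41.1 in intact libraries. The genotypes did not overlap in either condition, but the null libraries were the lower ones in differentiating cells and the higher ones in proliferating cells. The null minus intact difference was -0.58 ± 0.15 in differentiating cells (log2, SE; edgeR adjusted p = 0.00546) and 0.40 ± 0.15 in proliferating cells (adjusted p = 0.0478). The second difference was carried in part by null proliferating library 4. Without it the difference was 0.24 (adjusted p = 0.175), and the call was lost in 17 of 24 alternative analyses.

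With differentiation Bcl2l1 moved in opposite directions in the genotypes. It fell by 0.43 ± 0.15 on the log2 scale in null cells (adjusted p = 0.02) and rose by 0.55 ± 0.15 in intact cells (adjusted p = 0.00411). The fall in null cells did not pass without null proliferating library 4 (-0.26, adjusted p = 0.0948) or without null differentiating library 1 (-0.37, adjusted p = 0.0609). The difference between these responses was -0.98 ± 0.21 (interaction term, adjusted p = 0.00458) and passed in all 24 alternatives, from -1.07 to -0.79. Over the alternatives the null minus intact difference in differentiating cells ranged from -0.67 to -0.41, and the rise in intact cells from 0.36 to 0.65. Both passed in every alternative. Intact differentiating library 1, which had the most Bcl2l1, was also the library with the highest neuronal marker sum.

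Bcl2 (Entrez 12043, chromosome 1, 106538176 to 106714290, minus strand) encodes the founding guardian of the family. Normalised CPM of Bcl2 were 25.8, 26.2, 29.4 and 27.1 in null differentiating libraries, against 30.1, 23.9, 19.9 and 21.6 in intact differentiating libraries. The proliferating libraries had 30.0, 24.5, 26.2 and 27.6 in null libraries, against 29.4, 42.3, 39.3 and 43.8 in intact libraries. Null cells thus had nearly the same level in both conditions, and 3 of the 4 intact proliferating libraries stood well above all other libraries. In proliferating cells Bcl2 fell in null relative to intact cells by 0.51 ± 0.13 on the log2 scale (edgeR adjusted p = 0.00719), and in differentiating cells the difference of 0.18 ± 0.13 did not pass (adjusted p = 0.282). Without intact differentiating library 1 it was 0.31 (adjusted p = 0.0474). With differentiation Bcl2 fell by 0.70 ± 0.13 in intact cells (adjusted p = 0.00029). In null cells the change was 0.00 ± 0.13, with a 95% interval from its SE of -0.26 to 0.26. The interaction was 0.70 ± 0.19 (adjusted p = 0.0162), and missed the threshold with the isolate as a block (0.70, adjusted p = 0.0624). Its exons share 558 bases with an antisense transcript, whose reads cannot be told apart without known strandedness.

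Mcl1 (Entrez 17210, chromosome 3, 95656944 to 95663179, plus strand) encodes a guardian that neural progenitors of the embryo are known to need. Normalised CPM of Mcl1 were 207, 206, 212 and 200.2 in null differentiating libraries, against 169, 186, 167 and 184 in intact differentiating libraries. In proliferating cells they were 203, 216, 222 and 206 in null libraries, against 187, 199, 207 and 207 in intact libraries. The differentiating genotypes did not overlap, and the proliferating ones did. Mcl1 was higher in null differentiating cells by 0.22 ± 0.06 (log2, SE; edgeR adjusted p = 0.00399), with 0.08 ± 0.06 in proliferating cells (adjusted p = 0.266). The first call was lost when libraries were scaled by their totals alone (0.13, adjusted p = 0.067). In intact cells Mcl1 fell by 0.18 ± 0.06 with differentiation (adjusted p = 0.00882), a call that was likewise lost under that scaling (-0.10, adjusted p = 0.111) and with a minimum count of 50 (-0.10, adjusted p = 0.0878). In TPM the intact groups did not differ in that direction, at 125 ± 4.40 TPM in differentiating and 124 ± 3.09 TPM in proliferating cells. In null cells the change with differentiation was -0.04 ± 0.06 (adjusted p = 0.561).

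**Figure D2:**
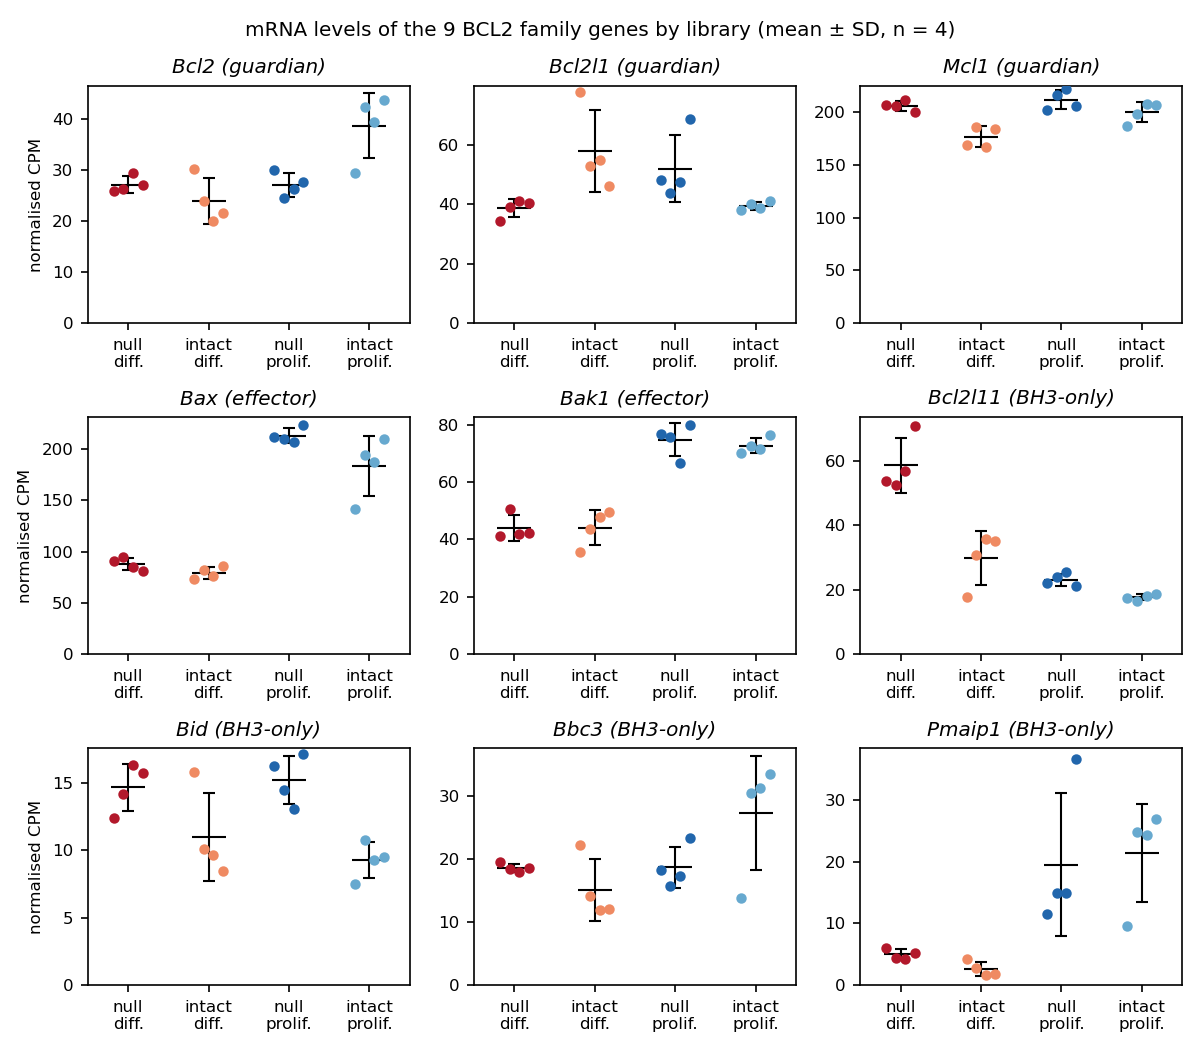
Normalised CPM of the 9 genes, 1 panel per gene and 1 point per library (replicates 1 to 4 from left to right within a group), with the mean (wide bar) and SD of 4 libraries. Bcl2l1 is lower in null than in intact cells on differentiation and higher during proliferation, Bcl2l11 is highest in null differentiating cells, and Bax and Bak1 are lower in both differentiating groups.

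The effector genes Bax and Bak1 followed the culture condition. Both fell with differentiation in both genotypes, without overlap between conditions, and neither passed between genotypes in either condition. Across the 9 genes 5 passed with differentiation in null cells (1 higher, 4 lower), where 69% of all tested genes passed (34.6% higher, 34.4% lower). In intact cells 8 passed (2 higher, 6 lower), where 72% of all genes passed (36.7% higher, 35.3% lower). The conditions did not overlap for 5 of 9 genes in null cells (67% of all genes) and for 5 of 9 in intact cells (62.8%). The 4 genes lower in null cells were Bcl2l1, Bax, Bak1 and Pmaip1, and the 6 lower in intact cells were Bcl2, Mcl1, Bax, Bak1, Bbc3 and Pmaip1.

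Bax (Entrez 12028, chromosome 7, 45461695 to 45466903, minus strand) encodes the pore former that moves from the cytosol to mitochondria on activation. Normalised CPM of Bax were 90.6, 94.9, 85.5 and 80.8 in null differentiating libraries, against 212, 210.5, 208 and 224 in null proliferating libraries. In intact cells they were 73.6, 81.9, 76.1 and 86.3 in differentiating libraries, against 141, 194, 188 and 209.8 in proliferating libraries. Every differentiating library was below every proliferating library. Bax fell by 1.28 ± 0.10 on the log2 scale with differentiation in null cells (edgeR adjusted p = 3.1e-08) and fell by 1.21 ± 0.10 in intact cells (adjusted p = 6e-08). These responses differed by -0.07 ± 0.14, with a 95% interval of -0.34 to 0.20. Null minus intact differences were 0.15 ± 0.10 in differentiating cells (adjusted p = 0.242) and 0.22 ± 0.10 in proliferating cells (adjusted p = 0.0876). Without intact proliferating library 1 the second was 0.11 (adjusted p = 0.222) and the difference between the responses 0.04. Without intact proliferating library 4 the genotype difference in proliferating cells was 0.29 (adjusted p = 0.0375). The gene model of Bax, 869 bases, was the shortest of the 9 genes, which raises its TPM relative to its CPM. Exons of Bax share 192 bases with Gm45808 on the same strand, a gene absent from the counts, so reads there cannot be told apart by strand.

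Bak1 (Entrez 12018, chromosome 17, 27019812 to 27028627, minus strand) encodes the pore former that resides in the mitochondrial membrane. Normalised CPM of Bak1 were 41.0, 50.6, 41.8 and 42.3 in null differentiating libraries, against 76.9, 75.7, 66.7 and 79.8 in null proliferating libraries. In intact cells they were 35.6, 43.6, 47.7 and 49.5 in differentiating libraries, against 70.2, 72.5, 71.7 and 76.3 in proliferating libraries. Bak1 fell by 0.77 ± 0.10 in null cells (edgeR adjusted p = 5.3e-06) and fell by 0.72 ± 0.10 in intact cells (adjusted p = 1.1e-05). Exons of Bak1 share 614 bases with Ggnbp1 on the opposite strand, a gene with 1077 counts over the 16 libraries. Between genotypes the 95% interval of the difference was -0.20 to 0.18 in differentiating cells and -0.15 to 0.23 in proliferating cells. The Bax to Bak1 ratio in TPM was 4.32 to 5.09 in null differentiating and 3.68 to 4.76 in intact differentiating libraries, against 6.35 to 7.17 in null proliferating and 4.64 to 6.34 in intact proliferating libraries.

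The promoter window of Bax is printed because Bax fell furthest among the guardians and effectors. It runs from 250 bases before to 50 after the RefSeq start, in GRCm38.p6, 5′ to 3′. The capitals mark the only match to the p53 half-site, searched by its consensus on both strands, which was found in 8.36% of 32851 RefSeq promoter windows of 300 bases. Matches describe letters and were not tested for binding.
Bax, chr7:45466849-45467148, strand −: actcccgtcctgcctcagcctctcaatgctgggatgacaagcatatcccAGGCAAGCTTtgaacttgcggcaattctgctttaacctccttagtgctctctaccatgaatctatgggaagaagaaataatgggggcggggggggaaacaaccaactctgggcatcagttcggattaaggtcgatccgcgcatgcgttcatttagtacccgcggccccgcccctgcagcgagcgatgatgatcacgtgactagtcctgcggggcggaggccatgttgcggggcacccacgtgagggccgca

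The BH3-only genes split into separate patterns. Bcl2l11 was highest in null differentiating cells, Bid was higher in null than in intact cells during proliferation, Bbc3 was highest in 3 of the 4 intact proliferating libraries, and Pmaip1 fell steeply with differentiation in both genotypes. BIM (from Bcl2l11), PUMA (Bbc3) and tBID (Bid) are known to bind all guardians, whereas NOXA (Pmaip1) binds mainly MCL1.

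Bcl2l11 (Entrez 12125, chromosome 2, 128126038 to 128162547, plus strand) encodes BIM, which mediates death after withdrawal of growth factors in neurons. Normalised CPM of Bcl2l11 were 53.9, 52.5, 56.9 and 70.9 in null differentiating libraries, against 17.6, 30.6, 35.8 and 35.2 in intact differentiating libraries. During proliferation the values were 22.1, 23.9, 25.4 and 21.2 in null libraries, against 17.5, 16.5, 18.01 and 18.6 in intact libraries. Every null library exceeded every intact library of its condition, and intact differentiating library 1 lay within the range of the intact proliferating libraries. In differentiating cells the difference was 0.98 ± 0.17 (log2, SE; edgeR adjusted p = 0.00029). In proliferating cells it was 0.39 ± 0.17 and did not pass (adjusted p = 0.089), though it passed in 3 of 24 alternatives, among them without intact differentiating library 1 (0.39, adjusted p = 0.00533), which enters the shared estimate of the spread. Without that library the difference in differentiating cells was 0.79 (adjusted p = 3.06e-05). With differentiation Bcl2l11 rose by 1.34 ± 0.17 in null cells (adjusted p = 6.1e-06) and by 0.75 ± 0.17 in intact cells (adjusted p = 0.00115). The interaction of 0.59 ± 0.24 did not pass (adjusted p = 0.095).

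Sums of cell type markers differed with the genotype in the same libraries, though not every marker followed its sum. The 10 astrocyte markers, all at 1 CPM or more in each group, summed to 5728 to 8909 CPM in null differentiating and 1998 to 3257 CPM in intact differentiating libraries. The 12 oligodendrocyte lineage markers summed to 2204 to 2649 CPM in null differentiating libraries (10 at 1 CPM or more) and 4331 to 9013 CPM in intact differentiating libraries (11 at 1 CPM or more). In proliferating cells the astrocyte markers summed to 2475 to 3656 CPM in null and 1303 to 2155 CPM in intact libraries. Sparcl1 averaged 816 and 191 CPM there, while Gfap (19.2 and 18.9), Aqp4 (22.2 and 20.5), Gja1 (112 and 117) and Aldh1l1 (98.9 and 101.5) were nearly equal. The oligodendrocyte lineage markers summed to 1711 to 2249 CPM in null (7 at 1 CPM or more) and 3019 to 3667 CPM in intact proliferating libraries (10 at 1 CPM or more). The 10 neuronal markers summed to 2354 to 2791 CPM in null differentiating libraries (8 at 1 CPM or more) and 2388 to 6472 CPM in intact differentiating libraries (10 at 1 CPM or more). Among them Stmn2 averaged 0.582 CPM in null differentiating and 295 CPM in intact differentiating cells, Syt1 averaged 1.61 and 98.1 CPM, and Dcx 340.1 and 885 CPM. Map2, the most abundant of the 10, went the other way, at 1591 and 1343 CPM, and Rbfox3 was at 25.2 and 31.2 CPM. The 10 endothelial and mural markers summed to 51.4 to 123 CPM in null proliferating (3 at 1 CPM or more, Cdh5 at 0) and 8.41 to 12.1 CPM in intact proliferating libraries (4 at 1 CPM or more, Cldn5 at 0). Most of that sum in null cells was Acta2, at 56.9 and 3.16 CPM, and Tagln, at 12.6 and 3.39 CPM. Pdgfrb was at 1.21 and 1.28 CPM, Kdr at 0.07 and 1.11 CPM, and the others averaged under 1 CPM. In differentiating cells the order of the sums was reversed, at 16.9 to 24.5 CPM in null and 34.6 to 44.5 CPM in intact libraries. With differentiation the neural stem and progenitor markers stood at 4334 to 5320 CPM in null differentiating against 6669 to 7165 CPM in null proliferating libraries, and at 2774 to 3841 CPM in intact differentiating against 7065 to 7366 CPM in intact proliferating libraries. The part of these markers in the differences of the 9 genes was not tested, and in these bulk libraries fewer cells of a type and less RNA per cell cannot be told apart.

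Promoter windows of Bcl2l11 and Bbc3 are printed because both genes are known targets of FOXO transcription factors. Of 13 windows that belonged to 8 of the 9 genes, these were the ones with the FOXO motif GTAAACA on either strand, shown in capitals. The motif was present in 3.65% of the 32851 windows. The matches were not tested for binding.
Bcl2l11, chr2:128125788-128126087, strand +: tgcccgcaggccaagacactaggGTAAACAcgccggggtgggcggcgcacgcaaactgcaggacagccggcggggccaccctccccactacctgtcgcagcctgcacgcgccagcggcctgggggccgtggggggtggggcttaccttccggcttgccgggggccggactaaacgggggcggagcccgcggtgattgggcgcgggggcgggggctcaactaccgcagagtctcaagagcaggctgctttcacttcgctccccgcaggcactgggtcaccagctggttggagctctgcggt
Bbc3, chr7:16310011-16310310, strand +: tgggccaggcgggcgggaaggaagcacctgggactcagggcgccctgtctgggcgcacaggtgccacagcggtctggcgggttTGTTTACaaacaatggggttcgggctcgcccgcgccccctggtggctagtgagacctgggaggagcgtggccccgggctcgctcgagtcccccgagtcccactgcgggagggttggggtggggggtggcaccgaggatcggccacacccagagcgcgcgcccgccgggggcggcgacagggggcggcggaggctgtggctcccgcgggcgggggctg

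Bid (Entrez 12122, chromosome 6, 120893119 to 120917062, minus strand) encodes the protein that caspase 8 cleaves, linking death receptors to mitochondria. Normalised CPM of Bid were 12.4, 14.2, 16.3 and 15.7 in null differentiating libraries, against 15.8, 10.1, 9.67 and 8.45 in intact differentiating libraries. In proliferating cells they were 16.2, 14.49, 13.1 and 17.1 in null libraries, against 7.51, 10.8, 9.30 and 9.50 in intact libraries. The proliferating genotypes did not overlap, and in differentiating cells intact library 1 was the exception among lower intact values. Bid was higher in null proliferating cells by 0.72 ± 0.18 (log2, SE; edgeR adjusted p = 0.00548). In differentiating cells the difference of 0.41 ± 0.18 did not pass (adjusted p = 0.0673), and it was 0.64 without intact differentiating library 1 (adjusted p = 0.00182). Neither genotype changed past the threshold with differentiation, at -0.05 ± 0.18 in null cells (adjusted p = 0.797) and 0.25 ± 0.18 in intact cells (adjusted p = 0.223), the second being 0.02 without intact differentiating library 1. Exons of Bid share 628 bases with Bcl2l13 on the opposite strand, and without known strandedness the reads there cannot be told apart. Bcl2l13 itself fell in null proliferating cells, by 0.38 ± 0.07 (adjusted p = 0.00092).

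Bbc3 (Entrez 170770, chromosome 7, 16308398 to 16318334, plus strand) encodes PUMA, a target of p53. Normalised CPM of Bbc3 were 19.4, 18.4, 17.9 and 18.6 in null differentiating libraries, against 22.2, 14.1, 11.96 and 12.02 in intact differentiating libraries. The proliferating libraries held 18.1, 15.7, 17.3 and 23.3 in null libraries, against 13.9, 30.5, 31.3 and 33.4 in intact libraries. In both intact groups library 1 lay on the other side of the null values from its replicates. The genotype differences of Bbc3 did not pass, at 0.30 ± 0.24 in differentiating cells (edgeR adjusted p = 0.336) and -0.55 ± 0.24 in proliferating cells (adjusted p = 0.0898). In proliferating cells the difference passed in 4 of 24 alternatives, among them scaling by library totals with all libraries kept (-0.61, adjusted p = 0.0445). Without both intact libraries numbered 1, an analysis added after the data were seen, the differences were 0.55 (adjusted p = 0.00132) and -0.76 (adjusted p = 9.51e-05), and the interaction was 1.31 (adjusted p = 6.25e-05), against 0.85 ± 0.34 with all libraries (adjusted p = 0.0914). With differentiation Bbc3 fell by 0.85 ± 0.25 in intact cells (adjusted p = 0.0058), while the change in null cells was -0.01 ± 0.24 (95% interval -0.48 to 0.47). Over the alternatives the change in intact cells ranged from -1.32 to -0.74 and passed in each.

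Pmaip1 (Entrez 58801, chromosome 18, 66458604 to 66465558, plus strand) encodes NOXA, also a target of p53. Normalised CPM of Pmaip1 were 5.998, 4.41, 4.20 and 5.25 in null differentiating libraries, against 11.5, 14.9, 14.9 and 36.7 in null proliferating libraries. In intact cells they were 4.21, 2.72, 1.59 and 1.80 in differentiating libraries, against 9.64, 24.7, 24.4 and 27.0 in proliferating libraries. All differentiating libraries were below all proliferating libraries of their genotype, and null proliferating library 4 and intact proliferating library 1 lay far from their replicates. Pmaip1 fell by 1.98 ± 0.40 on the log2 scale in null cells (edgeR adjusted p = 0.00043) and fell by 3.04 ± 0.42 in intact cells (adjusted p = 1.3e-05). Over the alternatives the change ranged from -2.16 to -1.47 in null and from -3.64 to -2.88 in intact cells, and both passed in each. Null minus intact differences were 0.93 ± 0.41 in differentiating cells (adjusted p = 0.0741) and -0.13 ± 0.38 in proliferating cells (adjusted p = 0.817). The second was -0.64 without null proliferating library 4 (adjusted p = 0.162) and -0.38 without intact proliferating library 1 (adjusted p = 0.428). In differentiating cells the difference passed in 5 of 24 alternatives, among them without intact library 1 (1.28, adjusted p = 0.0265). The interaction was 1.06 ± 0.56 (adjusted p = 0.185), and 1.57 without null proliferating library 4 (adjusted p = 0.0278).

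**Figure D3:**
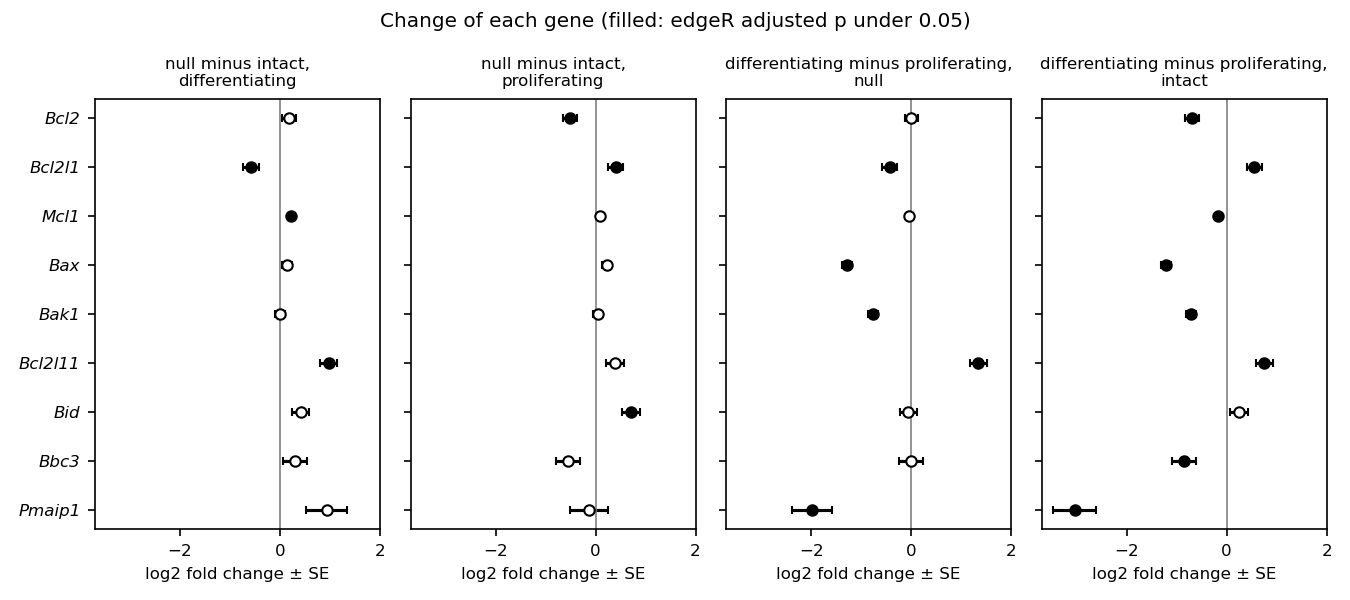
Log2 fold change (horizontal axis) with its SE for each gene in the 4 comparisons, filled where edgeR's adjusted p was under 0.05. In null against intact cells Bcl2l1 lies left of 0 on differentiation and right of 0 during proliferation, and Bax, Bak1 and Pmaip1 lie left of 0 in both responses to differentiation.

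Over the 9 genes, the interaction passed for Bcl2 and Bcl2l1, 2 of 9 genes where 22.7% of all tested genes passed (12.7% higher, 9.93% lower). Both intact libraries numbered 1 were left out in an analysis added after their values were seen. Higher counts in it can follow from that choice, so they cannot serve as support. Without them the interaction passed for 4 of 9 (3 higher, 1 lower), against 30.1% of all genes (16.3% higher, 13.8% lower). In that analysis 7 of 9 passed between genotypes in differentiating cells (6 higher, 1 lower), against 49.6% of all genes (26.6% higher, 23% lower). In proliferating cells 5 of 9 passed (3 higher, 2 lower), against 48.2% of all genes (24.1% in each direction). The counts for differentiation were the same as with all libraries, 5 in null cells (74.3% of all genes) and 8 in intact cells (73.4%). The median log2 fold change of the 9 genes was 0.22 for null against intact in differentiating cells (0.04 over all tested genes) and 0.08 in proliferating cells (-0.01 over all genes).

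The balance of pro- to anti-apoptotic mRNA was taken within each library as the summed TPM of the 6 pro-apoptotic genes over that of the 3 guardians, which does not depend on scaling between libraries. It was 1.998, 2.07, 1.83 and 1.90 in null differentiating libraries, against 1.496, 1.72, 1.77 and 1.89 in intact differentiating libraries. In proliferating cells it was 3.75, 3.66, 3.43 and 3.67 in null libraries, against 2.93, 3.70, 3.53 and 3.83 in intact libraries. All proliferating libraries lay above all differentiating ones, and the genotypes overlapped within each condition. As a description with no test, the log2 balance differed by 0.18 between null and intact differentiating cells and by 0.06 between null and intact proliferating cells. Between differentiating and proliferating cells it differed by -0.90 in null and -1.02 in intact cells. Without intact proliferating library 1 the difference between genotypes during proliferation was -0.02. The side of the balance depended on the measure. In CPM without gene length the log2 balance averaged -0.25 in null and -0.51 in intact differentiating cells. It averaged 0.32 in null and 0.24 in intact proliferating cells. As a mean of log2 TPM per gene it averaged -0.29 and -0.83 in null and intact differentiating cells, and -0.003 and -0.14 in null and intact proliferating cells.

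Most of the balance in summed TPM was Bax. Of the pro-apoptotic TPM, Bax made up 62.9 to 67.6% in null differentiating, 66.6 to 69.8% in intact differentiating, 76.6 to 80.0% in null proliferating and 75.4 to 76.6% in intact proliferating libraries. Summed TPM of the guardians averaged 179.6 ± 3.05 in null differentiating, 194 ± 13.0 in intact differentiating, 177 ± 10.9 in null proliferating and 170.3 ± 3.32 in intact proliferating cells (SD, n = 4 each). Summed TPM of Bax and Bak1 averaged 279.9 ± 18.9 in null differentiating and 281 ± 18.3 in intact differentiating cells, against 581 ± 30.5 in null proliferating and 531 ± 50.5 in intact proliferating cells.

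Mcl1 held 73.6 to 76.8% of the guardians' TPM in null differentiating libraries, against 56.9 to 70.3% in intact differentiating libraries, and the genotypes did not overlap. The BH3-only genes made up 11.9 to 15.0% of the TPM of all 9 genes in null differentiating libraries, against 8.38 to 11.6% in intact differentiating libraries, again without overlap. In proliferating cells they made up 6.67 to 9.08% in null and 6.25 to 9.14% in intact libraries. Within the BH3-only TPM the genotypes overlapped, with Bcl2l11 at 36.1 to 41.7% in null differentiating, 14.2 to 38.4% in intact differentiating, 10.8 to 19.1% in null proliferating and 9.72 to 19.2% in intact proliferating libraries. When each gene counted equally, as the mean of log2 TPM, the null minus intact difference in the balance was 0.54 in differentiating and 0.13 in proliferating cells, and that score gives the sparse BH3-only genes as much weight as Bax.

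**Figure D4:**
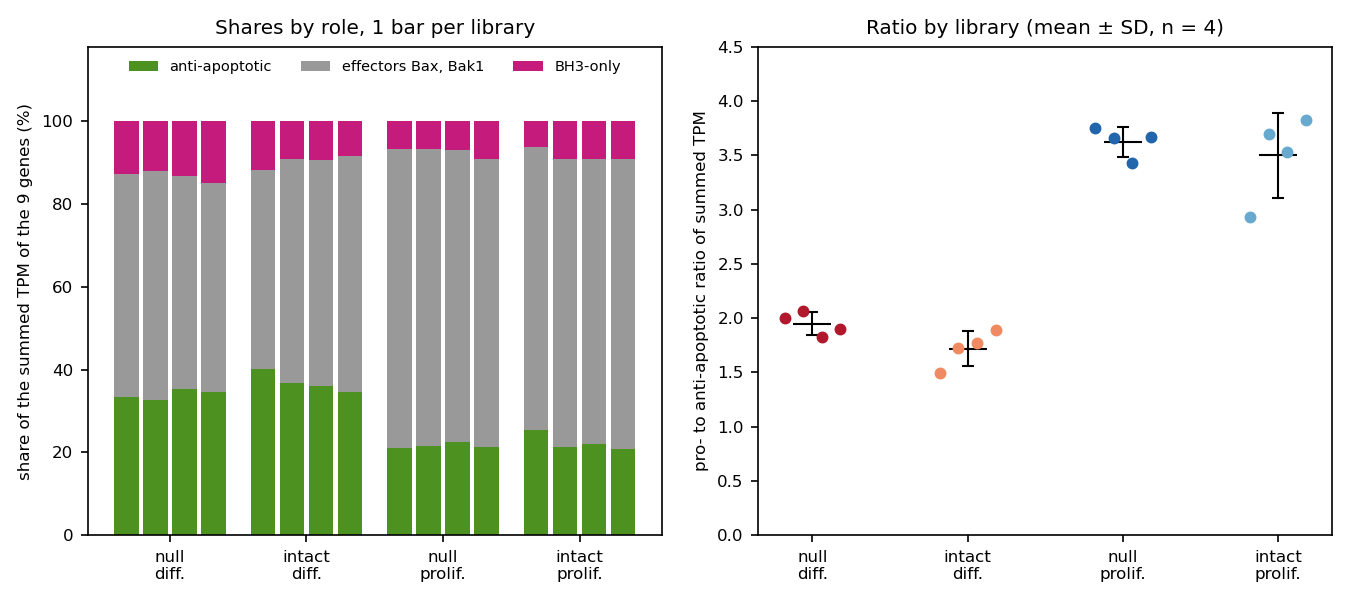
Left, share of the summed TPM of the 9 genes held by the guardians, the effectors and the BH3-only genes, 1 bar per library. Right, the ratio of summed pro- to anti-apoptotic TPM per library with mean and SD of 4. The ratio lies between 1.496 and 2.07 in differentiating and between 2.93 and 3.83 in proliferating libraries, with overlap of the genotypes.

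Other genes around the family were counted from lists of the pathway. Of 16 further BCL2 family genes, 9 were tested. Between null and intact cells 3 were higher and 1 lower in differentiating cells, and 1 was higher and 3 lower in proliferating cells, near the shares of all genes that passed (46.4% and 38.6%). Of these calls, Bcl2l13 and Bnip3l in differentiating cells were lost in 18 and 12 of 24 alternatives, and Hrk in proliferating cells in 11. Bok, a BAX-like relative, was higher in null differentiating cells by 0.76 ± 0.18 (log2, SE; edgeR adjusted p = 0.00258), and Bmf, a BH3-only gene, was lower in null proliferating cells by 1.06 ± 0.27 (-1.06, adjusted p = 0.00614). Bmf averaged 2.46 ± 0.58 CPM in null proliferating and 5.16 ± 2.29 CPM in intact proliferating cells. Like Bcl2l11, Bmf rose with differentiation, by 2.67 ± 0.27 in null cells (adjusted p = 5.6e-07) and 1.75 ± 0.26 in intact cells (adjusted p = 2.6e-05). Bcl2l2, the guardian BCL-W, did not pass in any of the comparisons, with log2 fold changes of -0.07 to 0.00.

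Of the 13 listed death receptor genes, 11 were tested, and in null against intact differentiating cells 7 were higher and 1 was lower, with a median of 0.94 (0.04 over all genes), where 24.3% of all genes were higher and 22% lower. Among the receptors, Eda2r was higher by 2.20 ± 0.25 (edgeR adjusted p = 6.2e-06) and Tnfrsf12a by 1.36 ± 0.22 (adjusted p = 0.00013), and Ripk1, a kinase that receptors recruit, was higher by 0.82 ± 0.14 (adjusted p = 0.00019). Eda2r averaged 37.9 ± 3.81 CPM in null differentiating and 8.22 ± 2.18 CPM in intact differentiating cells. Both were below its proliferating levels of 142 ± 20.1 CPM in null and 164 ± 54.2 CPM in intact cells. Cflar, which encodes the caspase 8 inhibitor c-FLIP, was also higher by 0.94 ± 0.12 (adjusted p = 1.9e-05), and the neurotrophin receptor Ngfr was lower by 1.71 ± 0.46 (-1.71, adjusted p = 0.00662). Casp8 itself was sparse, at 0.47 ± 0.31 CPM in null differentiating and 0.44 ± 0.09 CPM in intact differentiating cells. In proliferating cells 1 of the 11 was higher and 0 lower (19% and 19.7% of all genes), and that gene was Tnfrsf21 (0.72 ± 0.20, adjusted p = 0.0112). Without null proliferating library 4 it was higher by 0.37 (adjusted p = 0.00944). The interaction passed for 4 of the 11, all higher, where 12.7% of all genes passed as higher.

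Of 11 genes of the apoptosome and caspases, all were tested, and 3 were higher and 2 lower in null differentiating cells, with 2 higher and 1 lower in null proliferating cells. Over all genes 46.4% and 38.6% passed. The lower gene in proliferating cells was Casp2, whose call was lost without null proliferating library 4 (-0.20, adjusted p = 0.0574) and without intact proliferating library 1 (-0.26, adjusted p = 0.0603). Apaf1 and Casp9, which form the apoptosome with cytochrome c, were higher in null differentiating cells by 0.50 ± 0.12 (edgeR adjusted p = 0.00275) and 0.39 ± 0.08 (adjusted p = 0.00111). Cycs, the cytochrome c gene, was higher in proliferating null cells by 0.47 ± 0.09 (adjusted p = 0.00092) and with differentiation fell by 1.89 ± 0.10 in null cells, and fell by 1.33 ± 0.09 in intact cells.

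**Figure D5:**
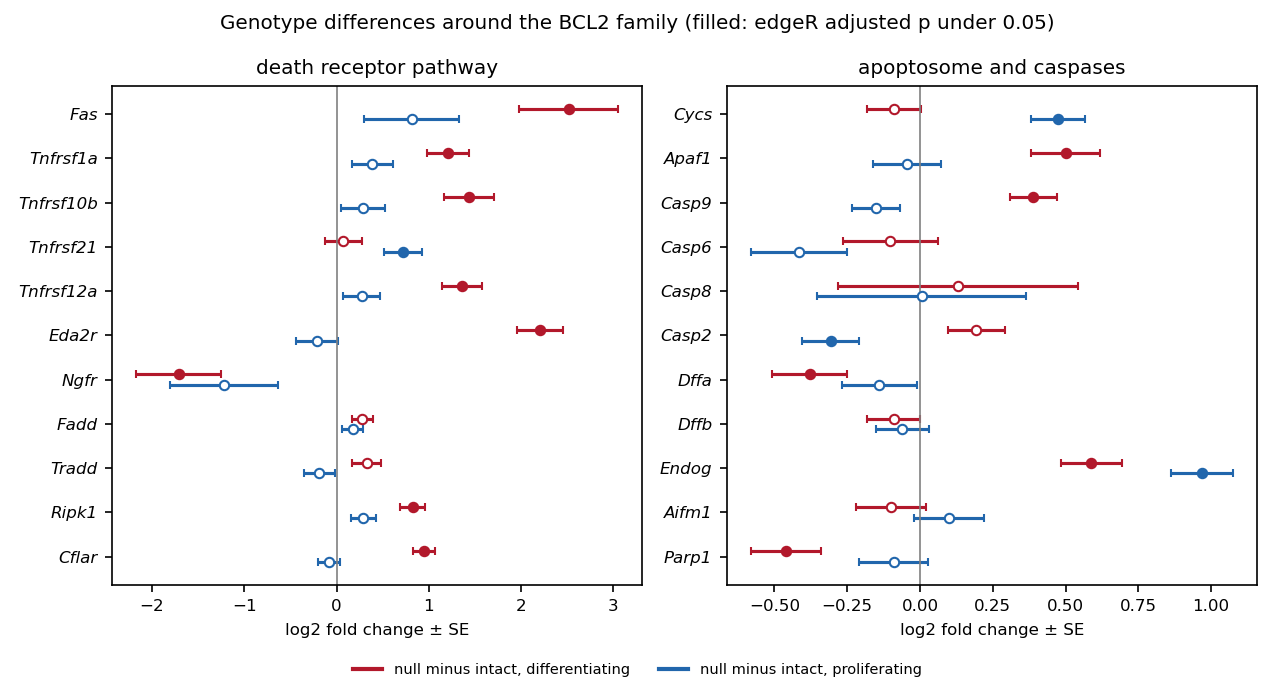
Log2 fold change of null against intact cells (horizontal axis) with its SE for the tested genes of the death receptor list and of the apoptosome and caspase list, in differentiating (red) and proliferating (blue) cells, filled where edgeR's adjusted p was under 0.05. On the death receptor list 7 of 11 genes are filled on the right in differentiating cells and 1 in proliferating cells.

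Among 9 mitochondrial partners, 7 were higher and 0 lower in null proliferating cells, with a median of 0.34 (-0.01 over all genes), where 19% of all genes were higher. In null differentiating cells 2 were higher, where 24.3% of all genes were, and the call of Vdac3 among them was lost in 11 of 24 alternatives. Vdac2, a channel that holds BAK1 at the mitochondrial membrane, was higher by 0.51 ± 0.07 in proliferating cells (edgeR adjusted p = 6.9e-05). Of 6 tested inhibitors of apoptosis and their antagonists, 3 were higher and 1 lower in null differentiating cells, among them Xiap at 0.26 ± 0.06 (adjusted p = 0.00124), and 0 were higher and 1 lower in proliferating cells, where 46.4% and 38.6% of all genes passed. The lower calls were lost in 16 of 24 alternatives for Htra2 in differentiating cells and in 8 of 24 for Birc5 in proliferating cells. Of 13 tested regulators of BH3-only genes, 2 were higher and 2 lower in null differentiating cells and 2 were higher and 3 lower in null proliferating cells, shares near or below those of all genes. In differentiating cells Foxo3 was higher (0.39 ± 0.10, adjusted p = 0.00545) and Foxo1 lower (-0.37 ± 0.14, adjusted p = 0.0449), the second call being lost in 13 of 24 alternatives. In proliferating cells Foxo3 was at -0.21 ± 0.10 (adjusted p = 0.117). Trp53, which encodes p53, was lower in null proliferating cells by 0.50 ± 0.10 (-0.50, adjusted p = 0.00088). Of 5 ligases and deubiquitinases of MCL1 and its relatives, 0 passed between genotypes by edgeR in differentiating cells, with 1 at an unadjusted p under 0.05 and 0 by DESeq2. In proliferating cells 0 passed by edgeR, with 2 at an unadjusted p under 0.05 and 1 by DESeq2.

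The genes whose profiles were most like those of the members were found over the 16 libraries as the smallest root mean square difference of centred log2 CPM. For Bax this was Rrp1b (0.086, with a spread of Bax itself of 0.639), and for Bak1 it was Sec61b (0.094, spread 0.394). For Bcl2l1 it was Ift88 (0.159, spread 0.307), for Bcl2 Ercc5 (0.132, spread 0.309), and for Bcl2l11 Rnd3 (0.209, spread 0.678). For Pmaip1 it was Cgas (0.381, spread 1.37), so Pmaip1 had the widest range of the 9 genes. These likenesses describe the same libraries and group means and carry no test.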

How the data were processed

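The authors deposited unnormalised read counts, with a file per library and a gene length per gene, per the file headers. The submitters' processing notes name bcl2fastq, featureCounts and mm10. Software versions, the aligner, the annotation and strandedness: not given in the sources used here. Symbols came from RefSeq (GRCm38), which matched 25275 of 27179 identifiers.

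The test was edgeR 4.0.16 (quasi-likelihood, R 4.3.3) on the deposited counts after filterByExpr with a minimum count of 10 and TMM scaling. Each of the 4 groups had its own mean, all 16 libraries shared the spread, and p-values were adjusted (Benjamini-Hochberg) over 15177 genes. A change of a gene is thus relative to the rest of its library. The scripts were tested on simulated data. TPM used the deposited lengths, and normalised CPM the TMM factors. Alternatives were other scalings and filters, DESeq2 1.42.0, replicate blocks, the compared libraries alone, and leaving out each library. The labels do not say that a number marks the same foetus in both conditions, so numbers were not taken as pairs. If isolates were shared, the main test leaves that pairing out, and the isolate block is the alternative that keeps it. Across conditions, same-numbered libraries of a genotype had residual correlations of -0.305 to 0.181, which cannot show whether they shared an isolate.

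The members and lists were chosen with earlier results of these data known. All members are named. From each list, genes with the lowest adjusted p (up to 4 a comparison) were named, and other listed genes only by their values. Libraries far from their group were found with Dixon's ratio. A listed pathway gene is not reported here.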

Additional observations from a re-analysis of the deposited data

Results flagged for a closer look

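Of 40 sets of 4 libraries, 4 held a library far from the others of its group by the 95% limit of Dixon's ratio, where chance gives about 1 in 20. Bak1 was at 50.6 normalised CPM in null differentiating library 2, against 41.0 to 42.3 in its replicates. Bbc3 was at 13.9 in intact proliferating library 1, against 30.5 to 33.4. Pmaip1 was at 36.7 in null proliferating library 4, against 11.5 to 14.9, and at 9.64 in intact proliferating library 1, against 24.4 to 27.0. The response to differentiation differed between null and intact cells, by the interaction term in edgeR, for Bcl2 (0.70 on the log2 scale) and for Bcl2l1 (-0.98).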

How the results depend on the processing

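Over all alternatives no called fold change of the 9 genes reversed its direction. Under the alternatives 1052 fold changes kept their side of the threshold, 23 lost a call and 23 gained one. With 1 library left out, the number of the 9 genes that passed ranged from 3 to 6 (null against intact, differentiating), 2 to 5 (null against intact, proliferating), 4 to 5 (response, null), 8 in each case (response, intact) and 2 to 3 (interaction). The 5 and the 6 came without intact differentiating library 1. Without both intact libraries numbered 1, a choice made after the data were seen, these counts were 7, 5 and, for the interaction, 4. The difference in log2 balance ranged from 0.12 to 0.23 and -0.02 to 0.10 between genotypes, -0.93 to -0.87 and -1.11 to -0.96 for the responses in null and intact cells, and 0.06 to 0.21 for the interaction. As a mean of log2 TPM it was 0.54 between genotypes on differentiation, -0.29 and -0.70 for the responses in null and intact cells, and 0.41 for the interaction. In CPM without gene length the responses in null and intact cells were -0.58 and -0.75, and with Bax and Bak1 alone the null response was -1.08, with 0.10 between genotypes on differentiation and 0.02 for the interaction. With an isolate replicate block the interaction passed for 1 of 9 genes, since Bcl2 missed the threshold (adjusted p = 0.0624). With the number as a replicate block 3 genes passed between genotypes on differentiation, 2 on proliferation, and 5 and 8 in the responses of null and intact cells. Same-numbered libraries of the 2 conditions correlated best with each other in 2 of 4 intact and 0 of 4 null pairs. Scaling by totals moved the share of passing genes that were higher to 39.4%, against 52.5% with TMM (null against intact, differentiating), and to 36.7%, against 49.1% (proliferating). Leaving out a library shows dependence on it but not why it differed, and the causes were not tested. Precision is limited by 4 libraries per group and, for Pmaip1, by low counts in differentiating cells.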
